A study of Mus musculus with 20 samples.

Results

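The heat shock chaperones described here are 10 mouse genes (Hspa1a, Hspa1b, Hspa8, Hsp90aa1, Hsph1, Dnajb1, Hspb1, Cryab, Hspd1 and Hspe1), taken by symbol from the 51789 genes of a table of FPKM values (fragments counted per gene, divided by transcript length and library depth). All 10 were found, and all 10 were among the 16383 genes tested. RNA came from the intervertebral discs of BL6 mice, either from the soft centre, the nucleus pulposus (NP), or from the layered outer wall that holds it, the annulus fibrosus (AF). Both tissues were taken from vehicle and from MDL-800 mice, which gives 4 groups of 5 libraries. All mice were put down at 24 months of age, after intraperitoneal injections for 6 months that began at 18 months. Vehicle mice received DMSO, and MDL-800 mice received MDL-800 in the same amount of DMSO, so every group carries the DMSO. MDL-800 is a small molecule described as an activator of SIRT6, a deacylase that acts on chromatin, and the series title names that activation. The dose of MDL-800, the sex of the mice and how many mice or discs stand behind a library are not given in the labels. The design text speaks of isolated cells, whereas the extraction protocol speaks of dissected tissue put into a stabilising solution. Nothing says that the libraries of a group came from separate mice, so p-values measure the spread between libraries.

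Heat shock chaperones hold unfolded proteins until they can fold, and many of them are switched on by heat shock factor 1 (HSF1) when unfolded protein builds up. HSP70 proteins work in a cycle, in which J-domain proteins bring the client and start ATP hydrolysis and HSP110 proteins exchange the nucleotide. Small heat shock proteins hold clients without ATP, and the chaperonin of mitochondria folds imported proteins in a closed chamber. Disc cells live under high osmolarity, low oxygen and mechanical load, all of which are known to call on chaperones.

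All 10 are protein-coding genes, placed here by GENCODE M21 on GRCm38. The HSP70 genes are Hspa1a (ENSMUSG00000091971) at chr17:34969190-34972156 on the minus strand, Hspa1b (ENSMUSG00000090877) at chr17:34956436-34959238 on the minus strand and Hspa8 (ENSMUSG00000015656) at chr9:40800984-40810087 on the plus strand. Their partners are Dnajb1 (ENSMUSG00000005483) at chr8:83608193-83612653 on the plus strand and Hsph1 (ENSMUSG00000029657) at chr5:149614287-149636376 on the minus strand. The HSP90 gene is Hsp90aa1 (ENSMUSG00000021270) at chr12:110690605-110702728 on the minus strand. The small heat shock protein genes are Hspb1 (ENSMUSG00000004951) at chr5:135887919-135889563 on the plus strand and Cryab (ENSMUSG00000032060) at chr9:50751325-50756636 on the plus strand. The mitochondrial pair is Hspd1 (ENSMUSG00000025980) at chr1:55077835-55088243 on the minus strand and Hspe1 (ENSMUSG00000073676) at chr1:55088132-55091307 on the plus strand. Cryab shares a short identical stretch with its neighbour Hspb2, whose mean was 6.96 scaled FPKM against 328 for Cryab.

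HSF1 binds inverted repeats of the letters GAA, so the promoters in RefSeq (GRCm38.p6) were searched for 2 units (GAANNTTC or TTCNNGAA, each its own reverse complement) and for 3 units (GAANNTTC followed by NNGAA, or TTCNNGAA followed by NNTTC, which cover both strands and contain 2 units). Each promoter spans 250 bases before the start site and 50 after it. Of 32851 promoters of this length, 0.603% hold the 3 units and 15.1% hold at least 2 units. The table has entries for 7 of the 10 chaperones, and Hspa8, Hsp90aa1 and Cryab have none. The 4 stretches below are the 250 bases before the start site for the 3 genes whose RNA differed most between groups and for Hspe1, which has the longest run of such units. Capitals mark the matched letters.
Hspa1a, chr17:34972157-34972406, minus strand: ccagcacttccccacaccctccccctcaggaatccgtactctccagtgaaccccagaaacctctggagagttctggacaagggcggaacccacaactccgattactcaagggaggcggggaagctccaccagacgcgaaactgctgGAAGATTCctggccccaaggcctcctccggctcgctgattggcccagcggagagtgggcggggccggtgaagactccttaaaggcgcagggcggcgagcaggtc
Hspa1b, chr17:34959239-34959488, minus strand: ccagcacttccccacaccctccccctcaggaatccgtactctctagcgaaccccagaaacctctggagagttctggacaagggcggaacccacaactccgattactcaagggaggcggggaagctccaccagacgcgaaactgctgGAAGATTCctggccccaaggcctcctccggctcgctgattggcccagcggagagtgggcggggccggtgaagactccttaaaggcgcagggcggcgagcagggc
Hspb1, chr5:135887669-135887918, plus strand: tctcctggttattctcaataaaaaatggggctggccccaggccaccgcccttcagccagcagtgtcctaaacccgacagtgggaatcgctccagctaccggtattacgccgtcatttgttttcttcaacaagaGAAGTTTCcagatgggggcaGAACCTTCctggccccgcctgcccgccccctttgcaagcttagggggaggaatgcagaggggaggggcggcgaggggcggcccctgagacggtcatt
Hspe1, chr1:55087898-55088147, plus strand: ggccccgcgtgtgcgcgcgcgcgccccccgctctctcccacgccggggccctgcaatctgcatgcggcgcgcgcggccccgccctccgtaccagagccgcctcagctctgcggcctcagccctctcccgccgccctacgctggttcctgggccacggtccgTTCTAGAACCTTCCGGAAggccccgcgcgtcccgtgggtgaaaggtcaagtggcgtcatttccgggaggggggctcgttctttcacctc
Hspa1a and Hspa1b each hold a 2-unit match that starts 104 bases before the start site, and their 250 bases differ in 3 letters. Hspb1 holds a pair of separate 2-unit matches, at 117 and 97 bases before its start. Hspe1 holds an unbroken run with 3-unit matches starting 89 and 84 bases before its start. Hspd1 is divergent from Hspe1, and its second RefSeq promoter overlaps that of Hspe1 by 285 bases and holds the same run. Hsph1 holds a 3-unit match after its start site, at base 36 or base 15 depending on which of its 2 starts is used. It also holds a 2-unit match before the start site, at base -33 or base -54 for the same starts. Neither Dnajb1 promoter holds 2 units. These matches describe letters only.

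Libraries were estimated at 12.8 to 22.1 M fragments from the steps between low FPKM values, and the lowest estimates behind a single value were 117 fragments for Hspa1a and 129 for Hspa1b. Replicates correlated across genes with r between 0.896 and 0.978. The summed scaled FPKM of NP markers was 25930 to 33040 in NP and 2702 to 15320 in AF, and that of AF markers was 3081 to 9828 in AF and 791.4 to 1585 in NP. Markers of all 9 neighbouring cell types examined (macrophages, neutrophils, B lineage, erythroid, muscle, nerve, fat, bone and endothelial cells) had higher group medians in AF, for instance 113.7 and 140.4 in NP against 3244 and 1781 in AF for 12 muscle markers. No marker found in the table was listed at 0 in every library. The GC slope of a library (how its values lean with the GC content of genes, in log2 units per 10 percentage points) ran from -0.285 to -0.007 in NP vehicle and from 0.023 to 0.088 in NP MDL-800, without overlap. NP vehicle libraries 1 and 2 stood apart at -0.285 and -0.278. AF slopes ran from -0.238 (vehicle library 12) to 0.144 (MDL-800 library 29), with overlap of the treatments.

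Levels are given in scaled FPKM, a level per transcript length adjusted for each library, and the lowest and highest chaperones lay far apart on it. Hspa8, the constitutive HSP70 that also uncoats clathrin vesicles, was the most abundant on average in 3 of the 4 groups, at 582 ± 133 in NP vehicle, 681 ± 85.5 in AF vehicle and 659 ± 51.2 in AF MDL-800 (SD, n = 5 each). In NP MDL-800 the first place went to Hspb1, at 549 ± 145 against 496 ± 44.0 for Hspa8 (SD, n = 5), with overlap between both genes. Cryab (alphaB-crystallin, a small heat shock protein also abundant in lens and muscle) ranked next or next but one by mean. Hsp90aa1, the inducible cytosolic HSP90, lay between 127 and 158 as a group mean, and Hspe1 and Hspd1 lay between 37.0 and 53.4. Dnajb1, Hsph1, Hspa1a and Hspa1b were the 4 lowest in each group. In AF vehicle, Dnajb1, Hsph1 and Hspa1a did not overlap with each other in level, whereas in NP vehicle neighbours overlapped all the way from Dnajb1 down to Hspa1b. In NP MDL-800, Hspa1a passed Hsph1 in mean level, again with overlap.

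As a share of the FPKM summed over the 10 chaperones, Hspa8 took a median of 57.3% in AF vehicle and 47.4% in AF MDL-800, against 36.3% and 30.6% in the matching NP groups. Hspb1 took 6.7% and 12.0% in AF, against 23.4% and 29.0% in NP. The sum itself ran from 1107 to 1521 in AF and from 1499 to 1997 in NP, with medians of 1712 in NP MDL-800, 1601 in NP vehicle, 1341 in AF MDL-800 and 1290 in AF vehicle. By median, Hspb1 thus held a larger part of the chaperone FPKM in NP than in AF, and Hspa8 a smaller one.

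**Figure D1:**
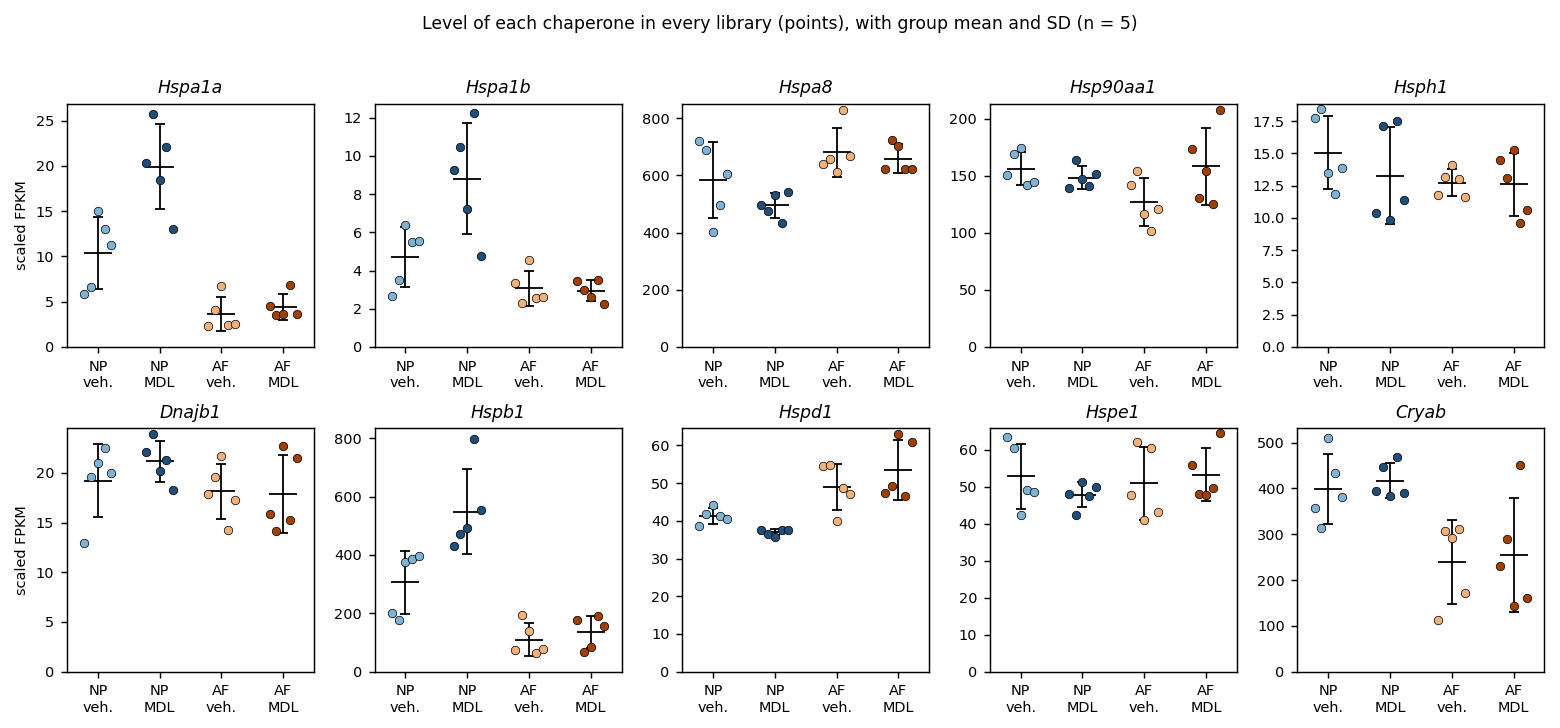
Scaled FPKM (vertical axis, linear from 0) of each chaperone in the 20 libraries, by tissue and treatment (horizontal axis; veh., vehicle; MDL, MDL-800). Points are libraries, and black bars are the mean and SD of 5. Hspa1a, Hspa1b and Hspb1 lie highest in NP MDL-800, and Hspd1 lies lower in both NP groups than in both AF groups by mean.

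The first treatment question was whether MDL-800 changed chaperone RNA in NP. In this comparison 0 of the 10 chaperones passed an adjusted p of 0.05 (limma on log2(scaled FPKM + 1), Benjamini-Hochberg over all genes tested), where 0.250% of all genes tested passed (0.232% higher and 0.0183% lower). At an unadjusted p under 0.05 there were 4 (Hspa1a, Hspa1b, Hspb1 and Hspd1), where 14.1% of all genes did so. The median log2 difference of the 10 was 0.00, beside -0.03 over all genes tested. Without NP vehicle libraries 1 and 2, 0 of the 10 passed as well.

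The inducible HSP70 genes Hspa1a and Hspa1b, intronless neighbours on chromosome 17, both had positive differences. In NP vehicle libraries 1, 2, 3, 5 and 6, Hspa1a was at 5.87, 6.57, 15.0, 13.0 and 11.3 scaled FPKM. Its values in NP MDL-800 libraries 15, 18, 19, 20 and 22 were 20.3, 25.7, 18.4, 22.1 and 13.0. The groups met only through MDL-800 library 22, and 4 of 5 MDL-800 libraries lay above every vehicle library. The log2 difference was 0.93 (SE 0.26, 95% interval 0.36 to 1.5; limma adjusted p = 0.134). With the GC trend of each library removed it was 0.66 (limma adjusted p = 0.24), and without vehicle libraries 1 and 2, which held the lowest values, it was 0.54 (limma adjusted p = 0.392).

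Hspa1b was at 2.66, 3.51, 6.40, 5.47 and 5.54 in the same vehicle libraries and at 9.28, 10.5, 7.24, 12.2 and 4.77 under MDL-800. Again only MDL-800 library 22 fell among the vehicle libraries. The log2 difference was 0.77 (SE 0.26; limma adjusted p = 0.204), and 0.47 without vehicle libraries 1 and 2. The genes share 99.2% identity over 2201 aligned nucleotides, so how reads were divided between them is uncertain, and the sum of both is the safer value. The sum rose from 15.1 ± 5.54 to 28.7 ± 7.36 with MDL-800 (SD, n = 5), a log2 difference of 0.92. The exact two-sided permutation p was 0.0238, not adjusted for the number of tests, and the smallest possible is 0.0079. The sum was not examined with the GC trend removed. Without vehicle libraries 1 and 2 the difference was 0.54 (exact permutation p = 0.0893).

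Of the small heat shock proteins, Hspb1 (HSP25 in mice, which also caps actin filaments) was at 201, 177, 375, 386 and 395 in vehicle libraries and at 430, 472, 493, 796 and 553 under MDL-800. All 5 MDL-800 libraries lay above all 5 vehicle libraries, although vehicle library 6 and MDL-800 library 15 were close. Such lack of overlap held for 2 of the 10 chaperones and for 4.50% of all genes tested. The log2 difference was 0.88 (SE 0.26, 95% interval 0.30 to 1.47; limma adjusted p = 0.157). It was 0.48 with the GC trend removed and 0.47 without vehicle libraries 1 and 2. Hspb1 has the highest GC content of the 10, at 61.7% of its longest transcript. Cryab ran from 314 to 511 in vehicle and from 384 to 468 under MDL-800, fully overlapping, with a log2 difference of 0.08 (95% interval -0.21 to 0.36), which turned to -0.079 without vehicle libraries 1 and 2.

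The mitochondrial chaperonin Hspd1 (HSP60) was at 38.5, 41.8, 44.3, 41.4 and 40.4 in vehicle libraries and at 37.6, 36.6, 35.7, 37.6 and 37.6 under MDL-800. It was the other chaperone without overlap, with all 5 MDL-800 libraries lower and a spread of only 0.869 (SD, n = 5) among them. The log2 difference was -0.15 (SE 0.05, 95% interval -0.27 to -0.03; limma adjusted p = 0.24), and it was -0.059 with the GC trend removed. Without vehicle libraries 1 and 2 the difference of Hspd1 was -0.18. Its lid, the co-chaperonin Hspe1 (HSP10), ran from 42.3 to 63.3 in vehicle and from 42.4 to 51.4 under MDL-800. The log2 difference of Hspe1 was -0.13 (95% interval -0.37 to 0.12), and it turned to 0.035 without vehicle libraries 1 and 2.

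The remaining members of the HSP70 and HSP90 machinery overlapped between treatments in NP. Hspa8 was at 721, 688, 402, 497 and 604 in vehicle libraries and ran from 434 to 542 under MDL-800. The log2 difference of -0.20 (95% interval -0.55 to 0.14) was -6.3e-05 without vehicle libraries 1 and 2, which held its highest values. The log2 differences were -0.07 for Hsp90aa1 (95% interval -0.25 to 0.10), -0.19 for the exchange factor Hsph1 (-0.60 to 0.21) and 0.15 for Dnajb1 (-0.15 to 0.45), the J-domain partner of inducible HSP70. The sign of Hsp90aa1 turned with the GC trend removed (0.033), and that of Dnajb1 turned without vehicle libraries 1 and 2 (-0.0051). All 3 intervals include 0.

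**Figure D2:**
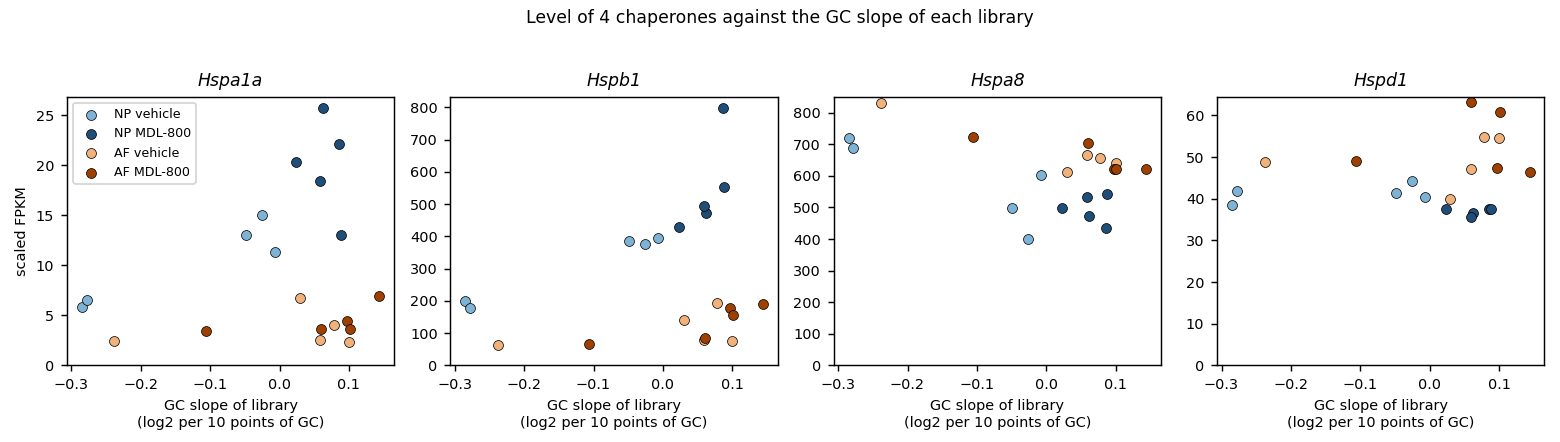
Scaled FPKM of Hspa1a, Hspb1, Hspa8 and Hspd1 (vertical axes, linear from 0) against the GC slope of each library (horizontal axis, log2 per 10 percentage points of GC). Each point is a library, coloured by group; NP vehicle libraries 1 and 2, at slopes of -0.285 and -0.278, hold the lowest NP values of Hspa1a and Hspb1 and the highest NP values of Hspa8.

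The plot of levels against GC slope sets the treatment values beside library composition. Hspa1a, Hspa1b, Hspb1, Cryab and Dnajb1 have a GC content above 50% (52.7% to 61.7%), and the other 5 lie between 43.7% and 47.3%. In NP the slope separates the treatments completely, so within this tissue treatment and slope cannot be told apart. Removing the trend lowered the differences of Hspa1a, Hspa1b and Hspb1 to 0.66, 0.54 and 0.48 (limma adjusted p = 0.24, 0.422 and 0.375).

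In AF the same question gave 0 of 10 chaperones at an adjusted p under 0.05 and 0 at an unadjusted p under 0.05 (limma), where 0% and 1.65% of all genes tested passed. The treatment groups overlapped for all 10 chaperones in AF, where 0.226% of all genes tested did not overlap. The median log2 difference was 0.07, beside 0.01 over all genes. Hspa1a was at 2.35, 4.08, 6.72, 2.40 and 2.55 in AF vehicle libraries 8, 9, 10, 12 and 13, and at 4.48, 3.49, 3.68, 6.89 and 3.66 in AF MDL-800 libraries 25, 27, 28, 29 and 30. Each group held a single library near 7, and the log2 difference was 0.28 (95% interval -0.29 to 0.85). The sum of Hspa1a and Hspa1b came to 6.70 ± 2.62 without and 7.39 ± 1.84 with MDL-800 (SD, n = 5), a difference of 0.15 (exact permutation p = 0.492).

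The largest AF differences were 0.32 for Hspb1 (95% interval -0.53 to 1.16) and 0.30 for Hsp90aa1 (-0.07 to 0.68), and neither passed. Hsp90aa1 was at 142.2, 153.7, 116.5, 101.5 and 120.8 in AF vehicle and at 173.0, 130.4, 154.3, 125.0 and 207.8 under MDL-800, so 3 of 5 MDL-800 libraries lay above every vehicle library. Hspb1 was at 74.6, 193, 141, 64.2 and 77.4 in vehicle and at 178, 66.5, 85.6, 190.4 and 157.5 under MDL-800, with full overlap. The summed NP markers in the same libraries were 3905, 15320, 7338, 6049 and 2702 in vehicle and 7740, 3826, 4021, 6545 and 7515 under MDL-800. Library 9 was highest in vehicle on both measures, whereas under MDL-800 Hspb1 was highest in library 29 and the NP markers in library 25. Cryab was at 113, 307, 293, 312 and 171.5 in vehicle and at 231, 289, 143, 452 and 161 under MDL-800. The summed muscle markers there were 1228, 5667, 3244, 11080 and 2657, and 1101, 6045, 1781, 12240 and 1313, so that libraries 12 and 29 were highest within their groups on both measures. The part of neighbouring tissue in these AF values was not tested.

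Whether the response to MDL-800 differed between tissues was tested as a contrast over all 4 groups. None of the 10 passed (smallest limma adjusted p over all genes 0.9997), and 1 of 10 had an unadjusted p under 0.05, where 3.73% of all genes did so. That gene was Hspa1b, whose response was larger in NP by 0.80 (95% interval 0.14 to 1.45). The differences were 0.64 for Hspa1a (-0.15 to 1.44), 0.57 for Hspb1 (-0.45 to 1.59), -0.38 for Hsp90aa1 (-0.76 to 0.01) and -0.27 for Hspd1 (-0.55 to 0.01). Without NP vehicle libraries 1 and 2 the differences of Hspa1a, Hspa1b and Hspb1 were 0.26, 0.50 and 0.16, and that of Hspb1 was 0.29 with the GC trend removed. For the sum of Hspa1a and Hspa1b the responses differed by 0.77 (treatment labels permuted within tissue, 63504 regroupings, exact permutation p = 0.107), and by 0.39 without NP vehicle libraries 1 and 2 (exact permutation p = 0.317). The intervals of the inducible HSP70 genes are wide, and the size of a difference between the tissues in their response is not fixed closely by these libraries.

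**Figure D3:**
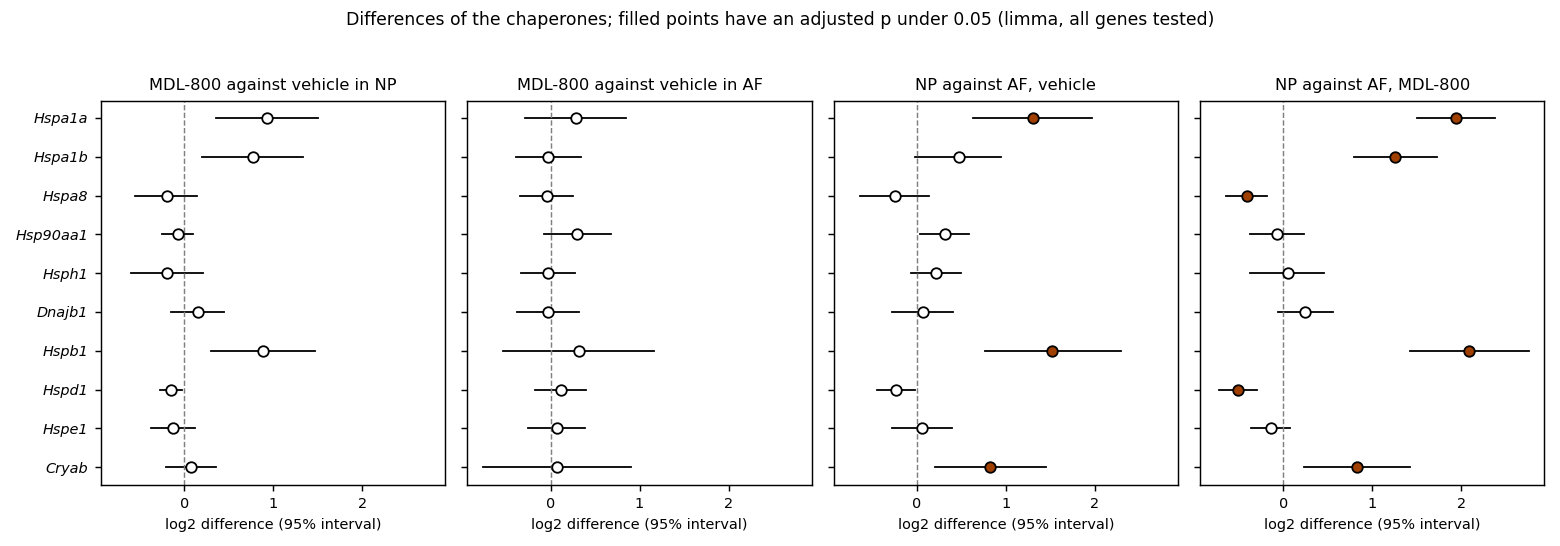
Log2 differences of the 10 chaperones (horizontal axis, points) with 95% intervals (lines) in 4 comparisons; filled points have a limma adjusted p under 0.05. No point is filled in either treatment comparison, and 3 and 6 points are filled in the comparisons of NP with AF.

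The tissue comparisons asked how NP and AF differ in each treatment arm. They share libraries with the treatment comparisons, and in bulk tissue fewer cells of a type and less RNA per cell cannot be told apart. In vehicle mice 3 of 10 chaperones were higher in NP and 0 were lower, where 55.7% of all genes tested passed (21.8% higher and 33.9% lower). At an unadjusted p under 0.05 there were 5, beside 60.3% of all genes. The median log2 difference of the 10 was 0.26, beside -0.08 over all genes. The members' count depended on scaling. Quantile normalization moved the median of all genes to 0.20 and upper-quartile scaling moved it to 0.08, and under each 6 of 10 chaperones were higher in NP. Beside them, 6474 of the 16383 genes tested were higher in NP with quantile normalization and 4976 with upper-quartile scaling. Over all genes, 39.2% of the calls were higher in NP with the scaling used here, 51.7% with upper-quartile scaling and 62.3% with quantile normalization.

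Hspb1 rose most from AF to NP in vehicle mice, from 110 ± 55.3 to 307 ± 108 (SD, n = 5), a log2 difference of 1.52 (SE 0.35; limma adjusted p = 0.00341). NP vehicle library 2, at 177, lay below AF vehicle library 9, at 193, and the other 4 NP libraries lay above all AF libraries. Hspa1a rose from 3.62 ± 1.88 to 10.4 ± 4.00 (SD, n = 5), a log2 difference of 1.30 (SE 0.30; limma adjusted p = 0.00381), with 3 of 5 NP libraries above all AF libraries. Cryab rose from 239 ± 91.3 to 399 ± 75.9 (SD, n = 5), a log2 difference of 0.82 (SE 0.28; limma adjusted p = 0.0288). Its lowest NP library (314) lay just above its highest AF library (312), a lack of overlap that 41.0% of all genes tested showed. The Cryab call was lost without AF vehicle library 13 (adjusted p = 0.0683), NP vehicle library 3 (0.0664) or NP vehicle library 5 (0.0593), with the FPKM as deposited (0.0539) and without a filter on low values (0.0662), all by limma.

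The other 7 did not pass in vehicle mice. Hspa1b differed by 0.47 (95% interval -0.02 to 0.95). It passed with the GC trend removed (0.56, limma adjusted p = 0.0209), without NP vehicle libraries 1 and 2 (0.76, 0.0103), with quantile normalization (0.94, 0.00231), with upper-quartile scaling (0.61, 0.0331), and on leaving out library 1 of NP vehicle (0.62, 0.025) or library 10 of AF vehicle (0.58, 0.045). Hsp90aa1 differed by 0.31 (0.03 to 0.59; limma adjusted p = 0.0577) and passed with upper-quartile scaling (0.49, 0.00465), with quantile normalization (0.35, 0.0182) and without AF vehicle library 8 (0.35, 0.0496) or 9 (0.38, 0.0204). Hsph1 (0.21) passed under the same 2 scalings (0.39, limma adjusted p = 0.0276, and 0.46, 0.012). Hspd1 lay lower in NP by mean, at 41.3 ± 2.09 against 49.0 ± 6.11 (SD, n = 5), with a log2 difference of -0.24 (limma adjusted p = 0.0651), and it passed without AF vehicle library 10 (-0.31, limma adjusted p = 0.0145), with the FPKM as deposited (-0.30, 0.0226) and with all 4 groups in one fit (0.0413), but was at -0.051 with upper-quartile scaling. Leaving out that library raised the number of chaperones called to 5. The sum of Hspa1a and Hspa1b came to 15.1 ± 5.54 in NP against 6.70 ± 2.62 in AF (SD, n = 5), with a log2 difference of 1.04 (exact permutation p = 0.0238). The ratio of Hspa1a to Hspa1b lay between 1.87 and 2.37 in NP vehicle and between 0.71 and 1.78 in AF vehicle, on a scale that depends on how reads were divided.

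In MDL-800 mice 4 of 10 chaperones were higher in NP and 2 were lower, where 25.6% and 37.2% of all genes tested were higher and lower (62.8% together). At an unadjusted p under 0.05 there were 6, beside 66.1% of all genes. Over all genes, 40.7% of the calls were higher in NP, against 52.7% with upper-quartile scaling and 61.7% with quantile normalization. Hspb1 was at 549 ± 145 in NP against 136 ± 56.0 in AF (SD, n = 5), a log2 difference of 2.09 (SE 0.30; limma adjusted p = 0.000142). Hspa1a was at 19.9 ± 4.69 against 4.44 ± 1.42 (SD, n = 5), a log2 difference of 1.94 (SE 0.20; limma adjusted p = 1.446e-05). Hspa1b was at 8.80 ± 2.90 against 2.95 ± 0.539 (SD, n = 5), a log2 difference of 1.26 (SE 0.21; limma adjusted p = 0.00038). These 3 genes did not overlap between the tissues, where 49.1% of all genes tested did not. Cryab differed by 0.83 (SE 0.27; limma adjusted p = 0.021), with 1 of 5 NP libraries above AF library 29, and lost the call without a filter on low values (limma adjusted p = 0.051).

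The 2 chaperones lower in NP of MDL-800 mice were Hspd1 and Hspa8. Hspd1 was at 37.0 ± 0.869 in NP and at 47.5, 49.1, 63.1, 46.5 and 60.9 in AF libraries 25, 27, 28, 29 and 30, a log2 difference of -0.51 (SE 0.10; limma adjusted p = 0.00111). Hspa8 was at 496 ± 44.0 in NP (SD, n = 5) and ran from 621 to 725 in AF, a log2 difference of -0.41 (SE 0.10; limma adjusted p = 0.00505). Like Hspb1, Hspa1a and Hspa1b, neither overlapped between tissues, a lack of overlap that 49.1% of all genes tested showed. The Hspa8 call was lost with upper-quartile scaling (-0.22, limma adjusted p = 0.105). Hspe1, the partner of Hspd1, differed by -0.14 (95% interval -0.36 to 0.08), and Hsp90aa1, Hsph1 and Dnajb1 differed by -0.07, 0.05 and 0.25 with intervals that include 0. Signs of Hspe1 and Hsp90aa1 turned with upper-quartile scaling (0.047 and 0.13), and that of Hsph1 turned with the FPKM as deposited (-0.031). Dnajb1 passed with quantile normalization (0.46, limma adjusted p = 0.00954), with upper-quartile scaling (0.43, 0.0104) and without AF MDL-800 library 28 (0.34, 0.0459). The tissue comparisons also set apart the neighbouring-cell markers given above, and the part of such cells in the AF values was not tested.

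Whether chaperones moved together between libraries was examined within each tissue, after subtracting group means. Of 45 pairs in NP, 4 passed by Pearson's r (adjusted over 90 pairs in both tissues, exact test over 14400 pairings), and of 45 pairs in AF 0 passed. The share of pairs of other genes that would pass was not examined, so these counts have no background. Where r is given without 2 libraries, these were the 2 farthest from the median of the first-named gene only, after subtracting group means. Hspa1a and Hspa1b rose and fell together in NP (r = 0.92, Spearman's rho 0.85; exact p = 0.000833 and 0.00333, adjusted 0.0292 and 0.0429), with r = 0.85 without the 2 libraries farthest from the median. Hspa1a also moved with Dnajb1 (r = 0.81, rho 0.89; exact p = 0.000833 and 0.00167, adjusted 0.0292 and 0.0427), though r fell to 0.62 without the 2 farthest libraries. Hspa1a moved against Hspe1 (r = -0.92, rho -0.95; exact p = 0.00146 and 0.00104, adjusted 0.0328 and 0.0427; -0.95 without 2). Hspa8 moved against Cryab (r = -0.95, rho -0.95; exact p = 0.000972 and 0.00167, adjusted 0.0292 and 0.0427; -0.96 without 2). Other NP pairs passed by rho but not by r, each with an adjusted exact p of 0.0427 for rho. They were Hspa1a with Hspa8 (rho -0.90, r = -0.87), Hspa1b with Hspa8 (rho -0.84, r = -0.78) and Hspa1b with Cryab (rho 0.87, r = 0.73). Their adjusted exact p for r was 0.067, 0.067 and 0.114. Reads of Hspa1a and Hspa1b can be assigned to either gene, and the part of this in the relation of Hspa1a with Hspa1b was not tested.

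The pairs in NP were also set against GC content. Among the 10 pairs of genes both above 50% GC, r ran from 0.43 to 0.92 with a median of 0.74, and with the GC trend of each library removed the median was 0.62. Between genes above and below 50% the median was -0.17 and became 0.02. The 10 pairs both under 50% ran from -0.74 to 0.88 with a median of 0.02, which became -0.12, so they showed no common direction. After that removal the 4 pairs kept r of 0.90, 0.78, -0.88 and -0.92 in the order given, but the smallest adjusted exact permutation p over 90 pairs was 0.0573. The folding partners Hspd1 and Hspe1, transcribed from a shared divergent promoter region, had r = -0.63 in NP (rho -0.39; exact p = 0.143 and 0.319, adjusted 0.373 and 0.687; 0.20 without 2) and r = 0.47 in AF (rho 0.44; exact p = 0.188 and 0.206, adjusted 0.457 and 0.497; 0.55 without 2). In AF the strongest relations were Hspa1b with Hspd1 (r = -0.76, rho -0.77; exact p = 0.0165 and 0.0114, adjusted 0.114 and 0.0854; -0.53 without 2) and Hspa1a with Hspb1 (r = 0.73, rho 0.72; exact p = 0.0208 and 0.0146, adjusted 0.133 and 0.0982; 0.85 without 2).

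**Figure D4:**
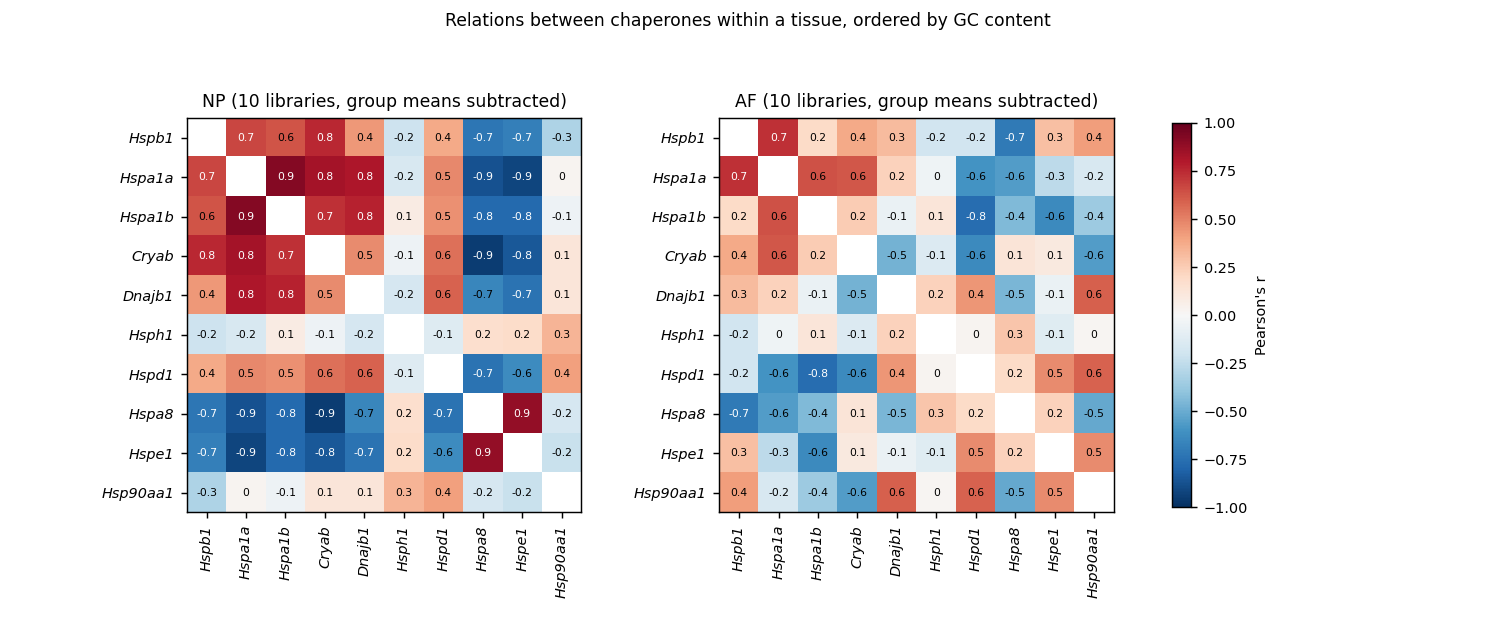
Pearson's r between chaperones over the 10 libraries of NP (left) and AF (right) after subtracting group means, with genes ordered from the highest to the lowest GC content. Red squares are positive and blue squares negative; in NP the 5 genes above 50% GC form a positive block and Hspa8 and Hspe1 run against it, while AF shows no such block.

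For 4 profiles, the genes outside the set that followed most closely over all 20 libraries (group means subtracted, 10706 genes searched) are given as a description. The mean of Hspa1a and Hspa1b was followed by Ccnd1 (cyclin D1, r = 0.93), Dbn1 (drebrin, an actin-binding protein, 0.92) and Sorbs3 (vinexin, 0.87). The mean of Hspb1 and Cryab was followed by Pacsin3 (0.93) and Map1lc3a (an LC3 protein of autophagosomes, 0.92). Hspd1 and Hspe1 were followed by Fam96a (0.86), Rpl36al (0.85) and Snrpg (0.85), and Hsp90aa1 by Ran (0.89), Khdrbs1 (0.87) and Anxa3 (0.86). The named followers of the first 2 profiles had a GC content between 50.9% and 63.1%, and the others between 44.1% and 50.2%, and libraries shared the GC slopes given above.

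Wider lists held 117 tested genes in 10 lists, of which 8 are lists of chaperones and co-chaperones, 1 holds regulators around HSF1 (4 genes) and 1 holds immediate early genes (20 genes). In both treatment comparisons 0 of the 117 passed, where 0.250% of all genes tested passed in NP and 0% in AF. The gene nearest to the threshold was Junb, an AP-1 transcription factor of the immediate early list, whose NP level was 8.81 ± 5.97 without and 51.0 ± 7.25 with MDL-800 (SD, n = 5; log2 difference 2.72, SE 0.47, limma adjusted p = 0.0519). It passed under 2 of 9 alternatives, over which its limma adjusted p ran from 0.00112 to 0.158. The 20 immediate early genes, which respond to handling as well as to signals, had a median difference of 0.66 in NP and 0.38 in AF, beside -0.03 and 0.01 over all genes; the NP median was 0.28 without vehicle libraries 1 and 2. Cct3, a subunit of the cytosolic chaperonin TRiC, had the smallest p of the lower genes, at 62.9 ± 7.55 and 47.3 ± 5.39 in NP (SD, n = 5; log2 difference -0.40, limma adjusted p = 0.101). The median of the 14 TRiC and prefoldin genes in NP was -0.24, and -0.14 with the GC trend removed. The 4 tested regulators around HSF1 had a median of 0.10 in NP and 0.04 in AF. In NP, Hsf1 was at 10.8 ± 0.694 without and 12.9 ± 0.659 with MDL-800 (SD, n = 5), a log2 difference of 0.24 (limma adjusted p = 0.16). Hsf4 differed there by 0.53 (limma adjusted p = 0.243), Hsf2 by -0.16 and Hsbp1 by -0.04. In AF the smallest p among positive differences belonged to Hspa12b (0.41) and among negative ones to Cct3 (-0.17), both with a limma adjusted p of 1. For the difference of responses these were Junb (1.76) and Hspa12b (-0.40), both at a limma adjusted p of 0.9997.

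Between tissues, 15 of the 117 were higher in NP and 30 lower in vehicle mice, and 26 were higher and 40 lower in MDL-800 mice. All genes tested had 21.8% higher and 33.9% lower in vehicle mice, and 25.6% and 37.2% in MDL-800 mice, and the counts of single lists below are to be read beside these shares. Among HSP70 relatives, Hspa12a was at 53.7 ± 11.4 in NP against 15.9 ± 7.39 in AF of vehicle mice (log2 difference 1.78, limma adjusted p = 0.000294), and Hspa2, best known from testis, was at 39.7 ± 4.37 against 16.0 ± 7.09 (1.34, limma adjusted p = 0.000472). Hspa12b, an endothelial relative, was at 0.0685 ± 0.0302 against 1.62 ± 0.395 (SD, n = 5), and endothelial markers summed to 3.59 to 8.06 in NP vehicle and 50.4 to 117 in AF vehicle. Hspa12b passed the filter on low values only through AF, where it is high, so its difference between tissues supports nothing. In vehicle mice 3 of 14 J-domain proteins were higher and 3 lower, against 2 and 3 of 16 HSP90 co-chaperones and relatives and 0 and 1 of 14 TRiC and prefoldin genes. In MDL-800 mice the same lists had 3 and 3, 3 and 6, and 1 and 5, and with upper-quartile scaling 3 and 3, 3 and 3, and 3 and 1. In vehicle mice that scaling gave 5 and 2, 2 and 2, and 4 and 0. Over all 16383 genes tested it gave 4976 higher and 4655 lower in vehicle mice, and 5611 and 5043 in MDL-800 mice. Co-chaperones of HSP70 went both ways, with St13, which binds HSP70, higher in NP (0.73) and Bag2, an exchange factor, lower (-1.56). Dnajb6 (0.47) and Hspb11 (0.88) were higher in NP.

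Chaperones of the endoplasmic reticulum fold secreted proteins such as collagens. Beside them, 33.9% and 37.2% of all genes tested were lower in NP in vehicle and MDL-800 mice. In vehicle mice 1 of 14 was higher and 8 were lower (median -0.41), and in MDL-800 mice 1 was higher and 9 were lower (median -0.48). With upper-quartile scaling 3 were higher and 6 lower in vehicle mice, and 2 and 6 in MDL-800 mice. Sdf2l1 was at 5.63 ± 1.31 against 17.1 ± 5.45 in vehicle mice (SD, n = 5; log2 difference -1.42), Dnajb11 differed by -0.69, and the collagen chaperone Serpinh1 differed by -1.28 in MDL-800 mice. On the list named for other small heat shock proteins, 1 of 6 genes was higher (Hspb11) and 3 were lower in vehicle mice. The counts were 2 and 2 with upper-quartile scaling, and 1 and 1 without NP vehicle libraries 1 and 2. Counts of the mitochondrial list depended on scaling, with 1 of 12 higher and 2 lower in vehicle mice here but 5 and 1 with quantile normalization. Hsf4, a relative of HSF1 known from lens, was higher in NP of MDL-800 mice (8.22 ± 0.889 against 2.36 ± 0.722, SD, n = 5; log2 difference 1.48), as were the immediate early genes Jund (1.08) and Ier3 (1.63), while Nr4a2 was lower (-1.81, and -3.57 to -1.23 over the alternatives). Nr4a2, whose AF mean was 3.20 ± 0.603 against 0.193 ± 0.121 in NP (SD, n = 5), also passed the filter only through AF. Hsf4 was higher in NP of vehicle mice as well (1.01, limma adjusted p = 0.00275). Hspa12b and Nr4a2, which the filter let through by AF alone, and Hsf4 in vehicle mice are left out of what follows. All other named differences of list genes between tissues kept their direction and their call under each of the 9 or 10 alternatives run without leaving out single libraries.

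**Figure D5:**
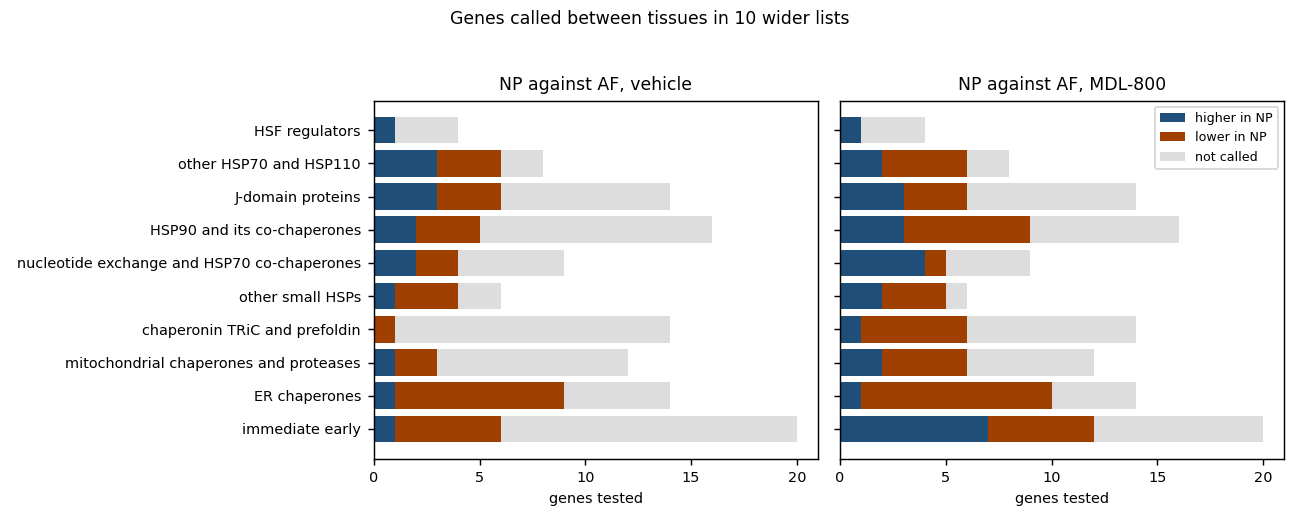
Number of tested genes (horizontal axis) higher in NP, lower in NP or not called (limma adjusted p of 0.05) in 10 wider lists (vertical axis; 8 of chaperones and co-chaperones, HSF regulators, and immediate early genes), in vehicle mice (left) and MDL-800 mice (right). Of 14 endoplasmic reticulum chaperones 8 and 9 are lower in NP, and 6 in each with upper-quartile scaling.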

How the data were processed

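RNA from 20 libraries in 4 groups of 5 was sequenced as stranded total RNA after ribosomal RNA removal, per the labels' protocols. The authors deposited FPKM per gene; the submitters' processing notes name STAR 2.7.11b and mm10, and how FPKM were counted is not given in the sources used here. FPKM were scaled by the median ratio over 11308 genes at 1 FPKM or more in every library (factors 0.933 to 1.062). Genes were kept where at least 5 libraries reached 1 FPKM, and log2(scaled FPKM + 1) was fitted with limma 3.58.1 (R 4.3.3, trend), so fold changes of low genes are understated. Each comparison used its own groups, the difference of responses used all 4, and Benjamini-Hochberg adjustment ran over all 16383 genes. The sum of Hspa1a and Hspa1b and the relations used exact permutation tests (scipy 1.17.1). Gene GC content came from GENCODE M21 (51596 identifiers matched, 99.8% of tested genes) and promoters from RefSeq, both on GRCm38. Depth was estimated from single-exon genes of 400 to 1200 nucleotides, for which 68.9% to 75.1% of low values lay on steps against 7.5% to 13.5% by spacing alone; since most but not all values did, no count test was run. The method was tested on simulated data. The chaperones and the wider lists were chosen with earlier results of these data known. All 10 chaperones are named. From the wider lists, up to 5 genes per direction with the smallest p past the threshold are named, otherwise the 1 smallest per direction. The tested regulators around HSF1 are named as well. Likeness used the 3 genes outside the set with the highest r, of which 1 is not reported here. Alternatives varied pseudocount, filter, scaling, GC trend, variance model, joint fit and each library in turn; leaving out NP vehicle libraries 1 and 2 together, and a block on the numbers in the column names, and relations with the GC trend removed were chosen after seeing the data.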

Additional observations from a re-analysis of the deposited data

Results flagged for a closer look

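Hspa8 in AF vehicle library 12 was at 829.5 scaled FPKM, far above the other 4 libraries of its group, which ran from 612.3 to 667 (gap over range 0.75, critical value 0.71 for 5 libraries). This was the 1 group beyond that limit among 40 groups of 5 examined, and chance puts about 1 in 20 beyond it. The same library had the lowest GC slope in AF (-0.238) and the highest summed muscle markers of AF vehicle (11080), whose part in the value was not tested. Without it the log2 difference of Hspa8 between treatments in AF was 0.029, against -0.04 with it.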

How the results depend on the processing

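With a single library left out, the genes called in NP between treatments ran from 2 to 189 (41 with all libraries), those in AF and for the difference of responses from 0 to 1 each, and the chaperones called between tissues in vehicle mice from 2 to 5. Genes called in NP numbered 18 with FPKM as deposited, 11 without NP vehicle libraries 1 and 2, 4 with all groups in one fit, 7 without a filter and 70 with quantile normalization. No chaperone was called between treatments in either tissue under any alternative run. Between tissues in vehicle mice, 6 chaperones were called with quantile normalization and 6 with upper-quartile scaling, beside 10399 and 9631 of the 16383 genes tested. The Hspa1a and Hspa1b sum in NP fell to 0.54 without NP vehicle libraries 1 and 2; leaving out single libraries kept it at 0.75 to 1.08.

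Signs turned only for differences that had not passed. Without NP vehicle libraries 1 and 2 the values were -0.0051 (Dnajb1), 0.035 (Hspe1) and -0.079 (Cryab) between treatments in NP, -0.11 (Hspe1) between tissues in vehicle mice, and 0.044 (Hspa8), 0.012 (Hsph1) and -0.15 (Cryab) for the difference of responses. With the GC trend removed they were 0.033 (Hsp90aa1) and -0.0036 (Cryab) in NP and -0.059 (Cryab) for the difference of responses. FPKM as deposited gave -0.0098 (Hspe1) between tissues in vehicle mice, -0.031 (Hsph1) in MDL-800 mice and -0.012 (Cryab) for the difference of responses. Upper-quartile scaling gave 0.13 (Hsp90aa1) and 0.047 (Hspe1) between tissues in MDL-800 mice, and quantile normalization -0.064 (Cryab) for the difference of responses. Leaving out single libraries gave ranges that crossed 0 for Cryab in NP (-0.0047 to 0.17), for Hspa1b (-0.098 to 0.09), Hspa8 (-0.08 to 0.029), Hsph1 (-0.097 to 0.057), Dnajb1 (-0.12 to 0.043) and Cryab (-0.17 to 0.25) in AF, for Dnajb1 (-0.0097 to 0.2) and Hspe1 (-0.016 to 0.13) between tissues in vehicle mice, for Hsp90aa1 (-0.15 to 0.036) and Hsph1 (-0.056 to 0.14) in MDL-800 mice, and for Cryab (-0.17 to 0.25) in the difference of responses. The cause was not tested.

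Of 450 log2 differences under alternatives that left out no single library, 417 kept their direction and side of the threshold, 13 gained a call and 4 lost one. Numbers shared by NP and AF column names may mark mice, which the labels do not say. The deviations of same-numbered libraries had r from -0.178 to 0.285, with 3 of 8 pairs above 0.1. For pairs with other numbers r ran from -0.372 to 0.327, with 10 of 42 above 0.1. The pairing was not used in the main tests. With those numbers as a replicate block, 4 chaperones and 9420 genes were called between tissues in vehicle mice, 6 and 10492 in MDL-800 mice, and 0 and 0 for the difference of responses; Hsp90aa1 gained a call in vehicle mice (0.31, limma adjusted p = 0.0446). Depth was lowest in NP MDL-800 library 19 (12.8 M fragments), and the fewest fragments behind a chaperone value, in any library, were 117 (Hspa1a).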
